A study of Mus musculus with 8 samples.

Results

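The transcripts described here are 10 genes that mark enteroendocrine cells, the hormone-secreting cells scattered through the intestinal epithelium: Chga, Cck, Gip, Gcg, Pyy, Nts, Sct, Ghrl, Sst and Tph1. They were chosen by name and not by their values, though with earlier results of these data known. All 10 were found among the 56980 gene identifiers of the count tables and among the 15986 genes with enough counts to be tested. Messenger RNA was sequenced from mucosa scraped off the jejunum of 8 male mice, 4 floxed controls (FFA2 fl/fl) and 4 Adipoq-F2-KO mice, to ask how loss of the short-chain fatty acid receptor FFA2 (gene Ffar2) from fat changes gene expression in the gut. Adipoq-F2-KO mice carried both floxed Ffar2 alleles and a Cre transgene under the adiponectin promoter, which is active in adipocytes, while controls were floxed littermates without Cre, so every mouse was floxed and the gut epithelium was not the target of the deletion. Both genotypes were housed together from birth on Teklad LM-485 chow, were moved at 12 weeks of age to a Western diet with 10% fructooligosaccharides, a fermentable fibre, and were killed 2 weeks later. The treatment label gives thermoneutral housing, and the breeding description gives ambient temperature before the diet. There was no group on chow and no group with Cre alone, so diet and Cre effects were not measured.

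Enteroendocrine cells arise in the crypts from secretory progenitors that switch on Neurog3 and then Neurod1, and they store peptide hormones or serotonin in granules that are released when the gut lumen delivers nutrients, acids or microbial metabolites. Individual cells make overlapping sets of hormones, and the set changes along the gut and as a cell climbs the villus: Gip, Cck, Sct and Ghrl are typical of the proximal small intestine, while Gcg (as GLP-1), Pyy and Nts become more common distally. FFA2 itself is expressed in some of these cells, where short-chain fatty acids are known to promote hormone release.

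The scrapings were mixed tissue, so the members came from a small share of the RNA. Together they made up 228.6 ± 8.75 CPM (counts scaled to a common library total) in floxed controls (SD, n = 4) and 210.2 ± 16.7 in Adipoq-F2-KO mice (SD, n = 4). In such bulk samples fewer cells of a type and less RNA per cell cannot be told apart. Libraries held 6007654 to 21712776 counts, with 6007654 to 6541595 in the 3 shallow ones (floxed 3, Adipoq-F2-KO 3 and 4) and 15204995 or more in the 5 deep ones, and the raw count of a member in a library ran from 17 (Pyy) to 1037 (Gip). Floxed 3 stood apart in its tissue content: the summed normalized count of 12 smooth muscle genes was 33620 in it and 3823 to 13720 in the other libraries, so values without it are also given, alone or within a range, where leaving it out turned a direction or moved a value by over 1.5 times. Adipoq, the fat hormone gene, was at 123.4, 54.1 and 22.6 normalized counts in floxed 3 and Adipoq-F2-KO 3 and 4, and at or below 1.86 in the deep libraries. Markers of the ileum followed the same split: Fabp6, a bile acid binding protein, was at 522.8, 140.1 and 941.9 in those 3 shallow libraries and at 0.774 to 3.95 in the deep ones, and Slc10a2, the ileal bile acid transporter, at 330.4, 268.3 and 415.5 beside 30.0 to 78.2. The part of depth, fat and gut position in the results was not tested, and values in the 5 deep libraries alone are given below. Ffar2 was at 4.18 to 9.49 normalized counts in floxed controls and 5.64 to 12.0 in Adipoq-F2-KO mice, a mixture of gut cells that does not check a deletion in adipocytes.

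To show the regulatory sequence of these genes, the 250 bases before a RefSeq start site (assembly GRCm38.p6) are printed for the general marker Chga, the most abundant hormone Gip, and Sct and Gcg, which are among the 3 members described library by library below. The capitals mark E-boxes of the letters CAGCTG or CAGATG, searched on both strands, the type of element bound by basic helix-loop-helix factors such as Neurod1, whose transcript was itself measured in these libraries. The intervals are chr12:102554691-102554940 on the plus strand for Chga, chr11:96024295-96024544 on the plus strand for Gip, chr7:141279134-141279383 on the minus strand for Sct and chr2:62483654-62483903 on the minus strand for Gcg.
Chga: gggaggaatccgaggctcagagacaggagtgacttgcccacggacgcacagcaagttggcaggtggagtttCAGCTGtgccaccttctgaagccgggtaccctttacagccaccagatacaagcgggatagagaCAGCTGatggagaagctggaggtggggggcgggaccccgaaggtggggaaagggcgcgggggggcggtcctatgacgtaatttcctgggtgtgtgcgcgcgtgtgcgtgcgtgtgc
Gip: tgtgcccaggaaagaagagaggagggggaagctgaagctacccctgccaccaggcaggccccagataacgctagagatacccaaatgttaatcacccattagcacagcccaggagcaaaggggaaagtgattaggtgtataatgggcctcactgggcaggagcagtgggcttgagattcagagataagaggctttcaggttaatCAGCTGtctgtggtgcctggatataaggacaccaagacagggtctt
Sct: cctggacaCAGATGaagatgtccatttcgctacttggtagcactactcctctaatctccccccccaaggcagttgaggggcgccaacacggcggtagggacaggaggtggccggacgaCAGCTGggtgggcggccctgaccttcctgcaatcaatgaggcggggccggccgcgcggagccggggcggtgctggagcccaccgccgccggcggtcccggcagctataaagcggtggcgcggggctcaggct
Gcg: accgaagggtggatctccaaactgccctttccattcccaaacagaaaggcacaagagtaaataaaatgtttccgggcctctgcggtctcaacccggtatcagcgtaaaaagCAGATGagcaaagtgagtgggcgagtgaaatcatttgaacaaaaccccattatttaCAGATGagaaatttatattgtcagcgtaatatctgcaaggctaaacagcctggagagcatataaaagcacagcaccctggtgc

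Chga held CAGCTG in both of its marked places, Gip in 1, Gcg held CAGATG in both of its places, and Sct held 1 of each. RefSeq gave 15 windows for the 10 members, each from 250 bases before to 50 after a start site, and all 10 matched by symbol. CAGCTG lay in a window of 5 members (Chga, Gip, Nts, Sct and Ghrl) and CAGATG in a window of 4 (Cck, Gcg, Sct and Ghrl), so that 7 held at least 1 of these motifs. Among all 27025 genes with such windows, 18.3% held CAGCTG, 19.2% held CAGATG and 33.4% held either, and genes with more windows, such as Ghrl with 4, have more chances of a match. Of all 32851 windows, 16.3% held CAGCTG and 17.2% held CAGATG. A match says that the letters are there and not that a factor was bound. No match was found in the windows of Pyy, Sst and Tph1.

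Levels are first compared between members per kilobase of exon, since transcripts differ in length. Gip, the incretin made by K cells, was the most abundant, with 779.6 ± 103.2 normalized counts per kilobase (SD over 8 libraries). Sst, the peptide of D cells that inhibits other endocrine cells, followed at 406.4 ± 61.1 per kilobase, and Nts, neurotensin, at 341.1 ± 48.2. Gip exceeded Sst in 8 of 8 libraries and their ranges did not overlap, whereas the ranges of Sst and Nts overlapped and Sst was the higher in 6 of 8.

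Sct, secretin, which drives bicarbonate secretion by the pancreas, stood at 282.3 ± 31.4 per kilobase, below Nts in 8 of 8 libraries although the ranges overlapped (236.1 to 330.1 against 289.2 to 439.0). Chga, chromogranin A, a granule protein shared by most enteroendocrine cells, was at 197.0 ± 34.4, and Cck, the hormone that contracts the gallbladder and curbs intake, at 170.9 ± 32.1. The range of Sct lay above that of Chga, while Chga and Cck overlapped and Chga was the higher in 6 of 8 libraries.

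Gcg, proglucagon, processed in the gut to GLP-1 and GLP-2, was at 112.5 ± 18.4 per kilobase and overlapped Cck in range, although Cck was the higher in 8 of 8 libraries. Ghrl, ghrelin, at 68.9 ± 13.9, and Pyy, peptide YY, at 68.6 ± 30.0 per kilobase, were not separated, with Ghrl the higher in 5 of 8 libraries. The range of Gcg overlapped that of Pyy through floxed 3 but lay above that of Ghrl. Tph1, the enzyme that starts serotonin synthesis in enterochromaffin cells, had the lowest level, 20.5 ± 4.08 per kilobase, and its highest library (27.8) lay below the lowest of Pyy (39.3).

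**Figure D1:**
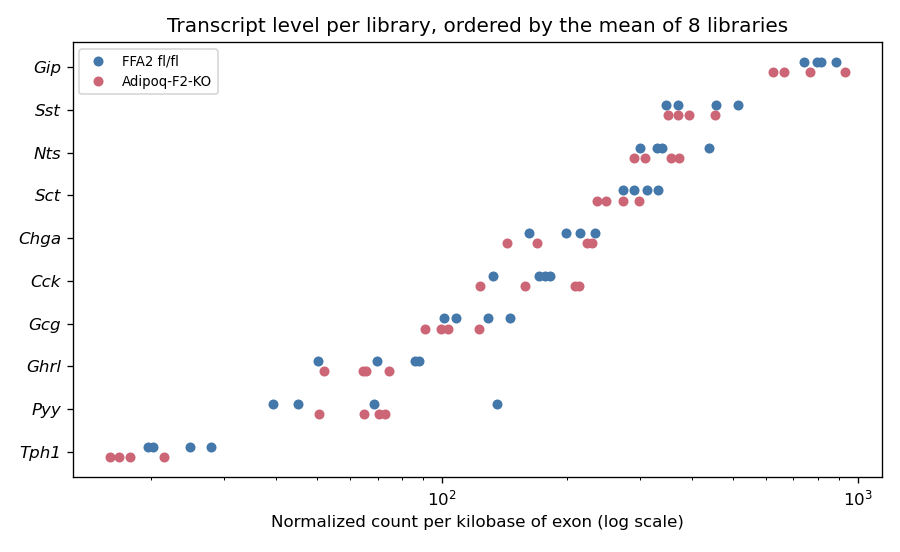
Normalized counts per kilobase of exon (horizontal log axis) of the 10 members, 1 point per library, coloured by genotype and ordered by the mean of all 8 libraries. Gip lies apart at the top (626.7 to 932.6) and Tph1 at the bottom (15.9 to 27.8), whereas Sst and Nts, Chga and Cck, and Ghrl and Pyy share ranges.

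No member passed the test for a difference between genotypes. By the DESeq2 Wald test with Benjamini-Hochberg adjustment over all tested genes, 0 of 10 members passed an adjusted p of 0.05, where 6 of 15986 genes passed (0.0375%), and all 10 members had an adjusted p of 0.9998. At an unadjusted p of 0.05 the count was again 0 of 10, beside 485 of all tested genes (3.03%). The edgeR quasi-likelihood test gave 0 of 10 members adjusted, beside 2 of all tested genes (0.0125%), and 1 of 10 unadjusted, Tph1, beside 557 (3.48%). In 9 of 10 members the fitted log2 fold change was below 0, beside 51.5% of all genes, with a median of -0.12 over the members and -0.01 over all genes. For 0 of 10 members did the genotypes fail to overlap, beside 2.12% of all genes. Without floxed 3, 0 members passed either threshold, where 104 of 15986 genes passed the adjusted and 1302 the unadjusted one. In that fit 8 of 10 members had a log2 fold change below 0, with Gip at -0.16, Sct at -0.16 and Gcg at -0.18. In the 5 deep libraries alone, where the ileal markers were low, 0 members passed either threshold, beside 77 (adjusted) and 864 (unadjusted) of 15986 genes. The log2 fold changes there were -0.36 for Tph1, -0.32 for Cck and Sst, -0.30 for Chga, -0.22 for Gip and Ghrl, -0.15 for Gcg, -0.07 for Sct, 0.07 for Nts and 0.42 for Pyy. The members come from the same cells and libraries and are not independent counts of direction.

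**Figure D2:**
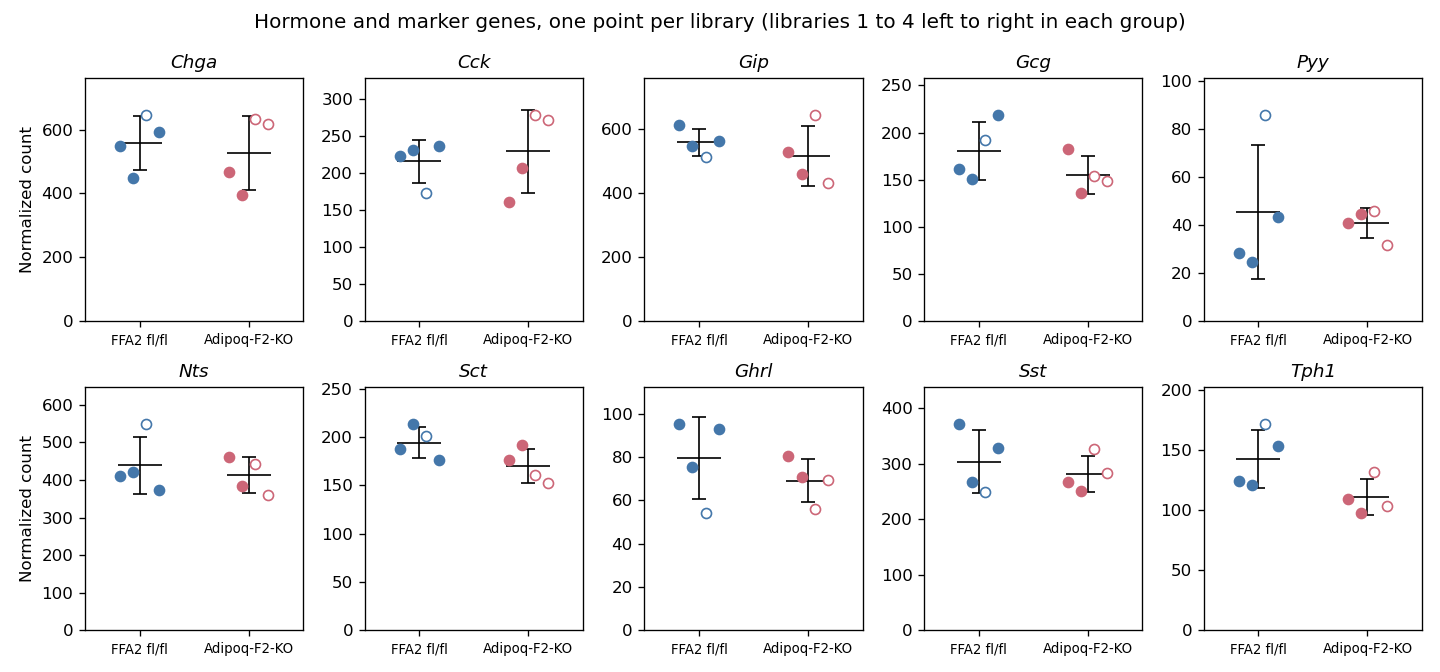
Normalized counts (vertical axes, from 0) of the 10 members in 4 FFA2 fl/fl and 4 Adipoq-F2-KO libraries, with filled points for deep and open points for shallow libraries, and lines for the mean and SD. Every gene shows overlapping genotypes, Tph1 has the lowest unadjusted p, and floxed 3 is the high point of Pyy (85.7).

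The 3 members with the smallest unadjusted p, Tph1, Sct and Gcg, are described by library. For Tph1 the normalized counts were 124.8, 121.2, 171.5 and 153.2 in floxed controls 1 to 4 and 109.7, 98.0, 132.1 and 103.4 in Adipoq-F2-KO mice 1 to 4. All 4 Adipoq-F2-KO libraries lay below the floxed mean and 3 lay below every control, while Adipoq-F2-KO 3 lay above floxed 1 and 2. The log2 fold change was -0.36 (SE 0.19, 95% interval -0.73 to 0.01, DESeq2 adjusted p = 0.9998), so the interval of the ratio ran from 0.603 to 1.01. Without floxed 3 the log2 fold change of Tph1 was -0.28 (DESeq2 adjusted p = 0.675).

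Sct was at 187.2, 212.9, 200.8 and 175.7 normalized counts in the floxed libraries against 176.0, 191.6, 160.2 and 152.3 in Adipoq-F2-KO mice. The 4 Adipoq-F2-KO values were all under the floxed mean of 194.1, but Adipoq-F2-KO 1 and 2 lay within the floxed range. The log2 fold change was -0.17 (SE 0.15, 95% interval -0.46 to 0.12, DESeq2 adjusted p = 0.9998). Sct had the narrowest spread among Adipoq-F2-KO mice of the 10 members, with a coefficient of variation of 10.3%, and one of 8.34% among controls.

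Gcg was at 161.1, 151.3, 192.4 and 218.2 normalized counts in floxed controls and at 183.1, 135.8, 154.2 and 148.5 in Adipoq-F2-KO mice. Adipoq-F2-KO 1 lay above floxed 1 and 2, and the remaining Adipoq-F2-KO libraries lay below floxed 1, with 2 of them (135.8 and 148.5) below every control. The log2 fold change was -0.21 (SE 0.19, 95% interval -0.57 to 0.16, DESeq2 adjusted p = 0.9998). Across the 14 alternative fits the value for Gcg stayed between -0.31 and -0.09.

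Among the hormones of the proximal gut, Gip was at 557.0 ± 41.3 normalized counts in floxed mice and 514.2 ± 93.8 in Adipoq-F2-KO mice (SD, n = 4 each), a log2 fold change of -0.12 (SE 0.15), and its highest and lowest libraries were both Adipoq-F2-KO (640.7 and 430.5). Ghrl was at 79.4 ± 18.9 and 69.2 ± 10.1, a log2 fold change of -0.21 (SE 0.24), or -0.32 without floxed 3. With any 1 library left out, Gip ran from -0.24 to -0.06 and Ghrl from -0.32 to -0.11. Ghrl is uncertain, since the opposite-strand genes Gm26982 and Gm44033 overlap it and drew 218 and 147 counts in all, beside 727 for Ghrl, and the strand setting of the counting was not given in the sources used here.

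Cck was the 1 member with a higher mean in Adipoq-F2-KO mice. It was at 222.9, 231.4, 173.6 and 236.8 normalized counts in floxed controls and 161.0, 207.1, 278.3 and 272.6 in Adipoq-F2-KO mice, a log2 fold change of 0.06 (SE 0.20, 95% interval -0.34 to 0.46). Both deep Adipoq-F2-KO libraries lay below all 3 deep controls and both shallow ones lay above every control, whereas the shallow control, floxed 3, was the lowest control. In the 5 deep libraries alone the log2 fold change of Cck was -0.32 (DESeq2 adjusted p = 0.939), and a part of depth was not tested.

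Of the more distal hormones, Nts was at 438.7 ± 75.5 normalized counts in floxed mice and 412.8 ± 47.7 in Adipoq-F2-KO mice, a log2 fold change of -0.07 (SE 0.15). Pyy was at 28.5, 24.8, 85.7 and 43.3 in floxed mice and 41.0, 44.6, 46.0 and 32.0 in Adipoq-F2-KO mice. One library, floxed 3, was thus far above the others for Pyy. Adipoq-F2-KO 3 and 4, the other libraries that carried the ileal markers, were at 46.0 and 32.0, and a part of gut position was not tested. The coefficient of variation of Pyy was 61.3% in floxed mice and 15.5% in Adipoq-F2-KO mice. The log2 fold change of Pyy was -0.08 (SE 0.40) with floxed 3 and 0.37 without it (DESeq2 gave no adjusted p), and the 95% interval of the ratio with all libraries was 0.546 to 1.63. Floxed 3 was also the highest library for Nts (547.9), whose log2 fold change without it was 0.04 (DESeq2 adjusted p = 0.960).

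Chga was at 558.1 ± 83.4 normalized counts in floxed mice and 527.7 ± 115.9 in Adipoq-F2-KO mice, with a log2 fold change of -0.09 (SE 0.19), or -0.01 without floxed 3. Sst was at 303.8 ± 56.3 and 282.2 ± 32.2, with a log2 fold change of -0.13 (SE 0.17), or -0.20 without floxed 3, and -0.20 to -0.01 with any 1 library left out. For the general marker and for the D cell hormone the genotypes overlapped.

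Relative to Chga within each library, the genotypes overlapped for all 9 other members. This ratio sets totals over the mixed tissue against each other and is not a value per cell. The ratio of Tph1 to Chga was 0.256 ± 0.0196 in floxed mice and 0.215 ± 0.0355 in Adipoq-F2-KO mice. It ran from 0.227 to 0.271 in controls, and Adipoq-F2-KO 3 and 4 (0.209 and 0.168) lay below that range while 1 and 2 (0.235 and 0.248) lay within it. The ratio of Gip to Chga was 1.02 ± 0.188 and 1.00 ± 0.211. Over 45 pairs of members the Pearson r of log2 levels across the 8 libraries, which share depth and tissue content, had a median of 0.18 and ran from -0.63 (Cck with Nts) to 0.75 (Gcg with Tph1). Without the 2 libraries farthest from the median of the first-named gene of a pair, the Pearson r of these pairs was 0.10 and 0.33. Their rank correlation (Spearman) over the 8 libraries was -0.52 and 0.81, so the reading depends on the measure.

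The genes around the hormones were taken from 7 lists of 106 genes in all, of which 61 were tested. Of these 39 had a fitted log2 fold change below 0, beside 51.5% of all genes, and 22 above, with a median of -0.05. Without floxed 3 the split was 28 below and 33 above (median 0.04), and without Adipoq-F2-KO 2 the same numbers (median 0.02). With DESeq2, 0 of 61 passed the adjusted test (0.0375% of all genes) and 1 passed an unadjusted p of 0.05 (3.03% of all genes). That gene was Hhex, a homeobox factor of somatostatin cells, at 2.42, 7.38, 10.5 and 3.87 normalized counts in floxed mice and 9.47, 19.8, 22.0 and 16.9 in Adipoq-F2-KO mice. All 4 Adipoq-F2-KO libraries lay above the control mean but Adipoq-F2-KO 1 lay under floxed 3, and the log2 fold change of 1.6 (SE 0.59, 95% interval 0.45 to 2.75) had a DESeq2 adjusted p of 0.9998. Hhex is also made outside the endocrine lineage, including in blood cells. Fitted values were above 0 for 8 of 8 macrophage genes (median log2 fold change 0.63) and 6 of 7 B and plasma cell genes (median 0.87). The same held for 8 of 10 T cell genes (median 0.29), where 51.5% of all genes were below 0. With 1 library left out, the macrophage median ran from 0.29 (without floxed 4) to 0.93. The B and plasma cell median ran from 0.47 (without floxed 4) to 1.99 (without floxed 2), and the T cell median from 0.13 to 0.4. Genes of a list share cells and libraries and are not independent counts of direction. In these lists 0 genes passed the adjusted test, and their part in the value of Hhex was not tested.

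Among factors of the enteroendocrine lineage, 18 of 25 were tested, 10 with a fitted log2 fold change above 0 and 8 below, with a median of 0.04 (8 above and 10 below without Adipoq-F2-KO 1, and 11 above and 7 below without floxed 3). Neurod1, which acts after Neurog3, was at 75.7 ± 9.94 normalized counts in floxed mice and 64.0 ± 11.7 in Adipoq-F2-KO mice, a log2 fold change of -0.26 (SE 0.23). Insm1, a zinc-finger factor of endocrine progenitors, had 0.37 (SE 0.32), and Nkx2-2, a homeobox factor of the lineage, -0.56 (SE 0.45). Neurod1 was at -0.12 without Adipoq-F2-KO 2. Neurog3 itself was below the count filter, at 0.789 to 7.52 normalized counts.

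Of the genes for granules and prohormone processing, 18 of 23 were tested, 13 with a fitted log2 fold change below 0 and 5 above, with a median of -0.05. Without floxed 3 the split was 5 below and 13 above (median 0.08), and without Adipoq-F2-KO 2 it was 7 below and 11 above (median 0.02). Ptprn, a granule membrane protein, was at 40.6, 40.1, 52.3 and 43.3 normalized counts in floxed mice and 19.7, 22.9, 30.0 and 45.1 in Adipoq-F2-KO mice. Of the Adipoq-F2-KO libraries 3 lay below every control and Adipoq-F2-KO 4 lay among them, and the log2 fold change was -0.63 (SE 0.32, 95% interval -1.27 to 0.00, DESeq2 adjusted p = 0.9998). Syt13, a synaptotagmin, had a log2 fold change of -0.51 (SE 0.42). Cpe, which trims processed peptides, had -0.71 (SE 0.68) and Rab3c, a vesicle GTPase, -0.53 (SE 0.58). Both turned without floxed 3, Cpe to 0.23 and Rab3c to 0.27, while without Adipoq-F2-KO 4 they were at -1.01 and -1.04. Syt13 was at -0.26 without floxed 1.

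Cpe and Rab3c were highest in the libraries with the most smooth muscle transcripts. Cpe was at 702.6 normalized counts in floxed 3 and 91.6 to 272.6 elsewhere, and Rab3c at 123.4 in floxed 3, 69.6 in Adipoq-F2-KO 4 and 18.0 to 36.9 elsewhere. Those 2 libraries also had the highest sums of the 12 smooth muscle genes (33620 and 13720) and of the 12 enteric neuron genes (667.1 and 411.7, beside 112.1 to 205.6 in the others). Enteric neurons also make Cpe and Rab3c, and the part of these cells in the values was not tested. All 12 smooth muscle genes had a fitted log2 fold change below 0 (median -0.91), and 0 of them passed the test. That direction rested on floxed 3: without it 11 of 12 were above 0, with a median of 1.24.

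**Figure D3:**
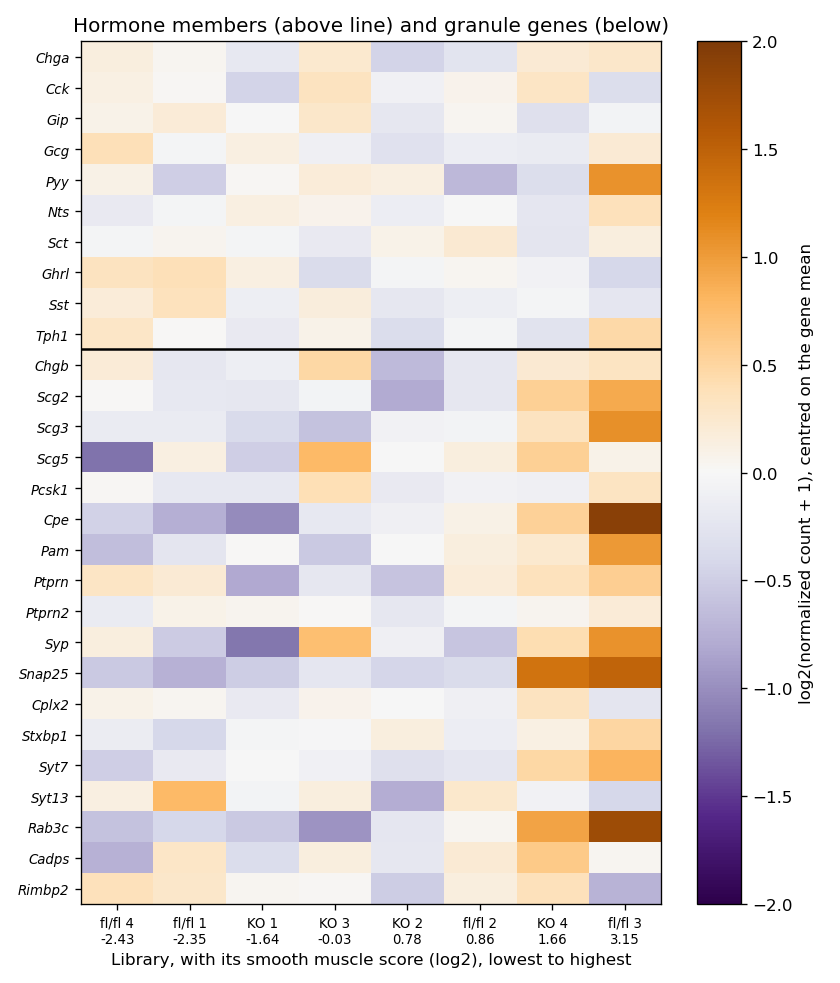
Values of log2(normalized count + 1), centred on each gene's mean, for the 10 members (above the line) and 18 tested granule genes (below), with libraries ordered by smooth muscle score, the mean centred log2 level of 12 muscle genes. Cpe, Rab3c and Snap25 are highest in the libraries with the highest scores (1.66 and 3.15), whereas of the members Pyy is the one with a similar high value, in floxed 3 alone.

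With the smooth muscle score as a covariate, 9 of 10 members still had a log2 fold change below 0. In that fit 0 members passed either threshold, beside 6 (adjusted) and 508 (unadjusted) of all 15986 tested genes. Tph1 was then at -0.37 (DESeq2 adjusted p = 0.99996), Ghrl at -0.13 and Sst at -0.08. Over the 8 libraries the Pearson r with the score was -0.82 for Ghrl, -0.71 for Sst and -0.54 for Gip. The remaining members ran from -0.32 (Gcg) to 0.43 (Pyy). Without the 2 libraries farthest out in score, r was -0.62 for Ghrl, -0.57 for Sst, -0.63 for Gip, -0.72 for Gcg and -0.02 for Pyy. Ghrl was lowest in floxed 3 (54.4) and highest in floxed 1 (95.1), while Adipoq-F2-KO 3 was at 56.06. The part of tissue content in these relations was not tested.

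**Figure D4:**
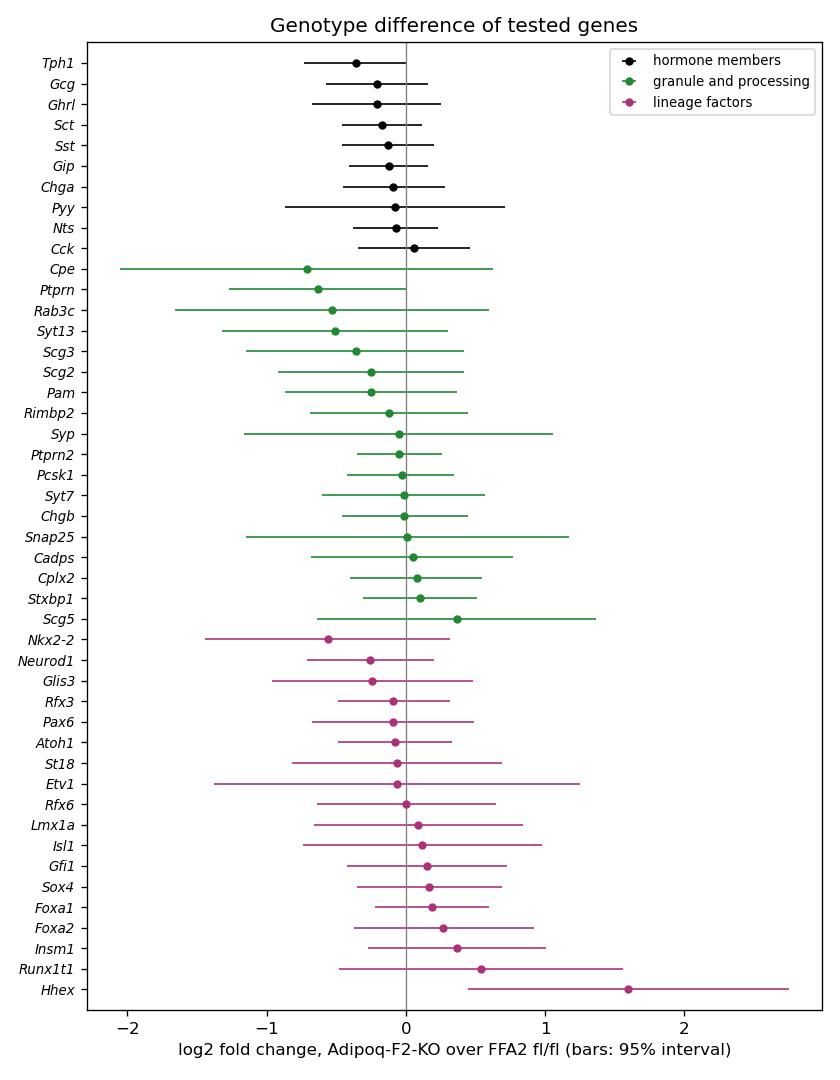
DESeq2 log2 fold changes of Adipoq-F2-KO over FFA2 fl/fl (points) with 95% intervals (bars) for the 10 members, 18 granule and processing genes and 18 lineage factors. The interval of each member includes 0, with Tph1 reaching 0.01 at its upper end, and Hhex (0.45 to 2.75) is the gene whose interval lies above 0.

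For serotonin, 7 of 8 genes were tested, and 6 of 7 (a list that does not hold Tph1) had a fitted log2 fold change below 0, beside 51.5% of all genes, with a median of -0.06. Without Adipoq-F2-KO 4 the split was 4 below and 3 above with a median of 0.00, and the median was -0.01 without floxed 1 and -0.13 without Adipoq-F2-KO 3. The transporter Slc6a4, which clears serotonin into enterocytes, was at 1331 ± 185.7 and 1204 ± 119.4 normalized counts, a log2 fold change of -0.14 (SE 0.13). Ddc, the decarboxylase after Tph1, had -0.09 (SE 0.14), and the vesicle transporters Slc18a1 and Slc18a2 had -0.10 (SE 0.18) and -0.06 (SE 0.17). With any 1 library left out, Slc6a4 ran from -0.20 to -0.04, Ddc from -0.18 to -0.02, Slc18a1 from -0.21 to -0.01 and Slc18a2 from -0.14 to 0.01, the upper ends without floxed 4, floxed 4, floxed 1 and Adipoq-F2-KO 4.

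Sensors of nutrients and metabolites were tested for 9 of 16 genes, 6 with a fitted log2 fold change below 0 and 3 above. That majority turned to 4 below and 5 above without floxed 3 or without floxed 4, and to 3 below and 6 above without Adipoq-F2-KO 1. Tas1r3, a sweet and umami taste receptor subunit, had a log2 fold change of -0.32 (SE 0.22), and the galanin receptor Galr1 had -0.47 (SE 0.52). Ffar3, the other short-chain fatty acid receptor of these cells, was at 15.3 ± 6.01 and 22.8 ± 7.44 normalized counts, with 0.54 (SE 0.46). Ffar4, a long-chain fatty acid receptor, had 0.39 (SE 0.48), and Ffar2 had 0.18 (SE 0.56). With any 1 library left out, Tas1r3 ran from -0.49 (without Adipoq-F2-KO 1) to -0.24, Ffar4 from 0.05 (without Adipoq-F2-KO 4) to 0.63 (without Adipoq-F2-KO 1), Galr1 from -0.67 (without floxed 4) to -0.21 (without floxed 3), and Ffar3 from 0.34 (without floxed 4) to 0.82 (without floxed 2).

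Receptors of the hormones were mostly below the count filter in this tissue, with 4 of 22 tested. The GLP-1 receptor Glp1r was at 66.7 ± 5.67 and 75.5 ± 16.7 normalized counts, a log2 fold change of 0.15 (SE 0.24). The somatostatin receptors Sstr1 and Sstr2 had -0.42 (SE 0.57) and -0.35 (SE 0.57), and the serotonin receptor Htr4 had 0.46 (SE 0.61). With any 1 library left out, Htr4 ran from 0.00 (without Adipoq-F2-KO 4) to 0.63, Sstr1 from -0.68 (without Adipoq-F2-KO 4) to -0.13 (without floxed 1), Sstr2 from -0.54 (without Adipoq-F2-KO 3) to -0.13 (without floxed 4), and Glp1r from 0.07 (without Adipoq-F2-KO 1) to 0.32 (without Adipoq-F2-KO 2).

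Enzymes that act on the hormones after release were abundant. Dpp4, which inactivates GLP-1 and GIP and is a brush border enzyme, was at 18870 ± 2970 normalized counts in floxed mice and 17640 ± 1839 in Adipoq-F2-KO mice, a log2 fold change of -0.10 (SE 0.14). Mme, neprilysin, had -0.01 (SE 0.12), Ide, the insulin-degrading enzyme, 0.04 (SE 0.11), and Ece1, endothelin-converting enzyme, -0.03 (SE 0.11). With any 1 library left out these 4 stayed between -0.17 and 0.10, and each had a fit on either side of 0. Mboat4, which acylates ghrelin, was below the filter at no more than 2.00 normalized counts. Of 8 other gut hormones 2 were tested: Tac1, the substance P precursor, with -0.21 (SE 0.35), and Ucn3, urocortin, with 0.13 (SE 0.32). Tac1 ran from -0.38 (without floxed 1) to -0.10 (without floxed 4) and Ucn3 from 0.02 (without floxed 3) to 0.37 (without floxed 2). Insl5, a hormone of the colon, was at 0 in all 8 libraries.

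Several members are also made outside the intestinal epithelium, and markers of those sources were read. None of 7 pancreatic islet genes passed the count filter, and Ins2, Slc30a8, G6pc2 and Nkx6-1 were at 0 in every library. The summed level was 4.24 to 10.5 normalized counts in floxed mice and 4.34 to 13.2 in Adipoq-F2-KO mice. It came mostly from Iapp, which is also in the list of other gut hormones. Of 10 pancreatic exocrine genes 2 were tested, with sums of 65.01 to 185.4 in floxed mice and 119.0 to 150.4 in Adipoq-F2-KO mice. None of 8 stomach genes passed the filter, with Gkn1 and Gkn2 at 0 and sums of 6.27 to 10.5 and 5.53 to 14.01. Of 12 mast cell genes, which bear on Tph1, 3 were tested, Mcpt1 and Hdc had a higher mean in Adipoq-F2-KO mice and Kit did not (132.3 and 131.4), Cma1 and Tpsab1 were at 0, and the sums were 130.0 to 257.2 and 173.7 to 265.1, mostly from Kit, which is also a gene of the pacemaker cells of the muscle.

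The genes whose pattern was most like that of the members were found by Pearson r over the 8 libraries with the mean centred log2 level of the 9 members whose mean was at least 50 normalized counts. That level spanned 0.33 on the log2 scale, from -0.19 in Adipoq-F2-KO 2 to 0.15 in floxed 4, and the genotypes overlapped. Of 10216 genes compared, Pm20d1 had the highest r (0.946, or 0.897 with genotype means subtracted), followed by Armt1 (0.933), Tmem62 (0.928), Trub2 (0.922), Zmym6 (0.915), Slc3a2 (0.912), Nrbf2 (0.910) and 2810004N23Rik (0.906). These values are the highest of many over few libraries that share depth and tissue content, and they are a description only. Genes of the lineage stood lower, with Neurod1 at 0.73 (229 genes higher), Chgb, chromogranin B, at 0.57, Pcsk1, the prohormone convertase, at 0.43, and the granule genes Scg2 at 0.34 and Ptprn2 at 0.27. Slc18a1 went slightly the other way, at -0.11.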

How the data were processed

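RNA was extracted from jejunal scrapings, polyadenylated RNA was made into stranded libraries, and these were read from 1 end over 75 bases. The authors trimmed reads with Trimmomatic, aligned them with STAR and counted them per gene with featureCounts, and the submitters' processing notes name GRCm38 and mm10. Versions, the annotation release and the strand setting were not given in the sources used here. The deposited values are raw counts, 1 table per library, neither normalized nor pooled. Groups and replicate numbers were read from the sample titles, which name separate mice.

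Symbols were matched through GENCODE M21 (52125 of 56980 identifiers), and exon length is the union of its exons. A gene was tested if 4 or more libraries gave it 10 or more counts, with DESeq2 1.42.0 in R 4.3.3 (two-sided Wald test, genotype as the only term), with Benjamini-Hochberg adjustment over all tested genes. Normalized counts are counts over the DESeq2 size factor. The script was tested on simulated data. Alternatives used edgeR 4.0.16, TMM factors, no filter, the smooth muscle score as covariate, a replicate block, the 5 deep libraries, and 8 fits each without 1 library, which were read for the lists too, a choice made after seeing the data.

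Members and lists were chosen with earlier results of these data known. Genes named were all members, the value in every library for the 3 with the smallest unadjusted p where none passed or failed to overlap, up to 4 genes of smallest p per enteroendocrine list, and the 8 genes most like the members. Chgb, Pcsk1, Scg2, Ptprn2, Mcpt1, Hdc, Neurog3, Ffar2, Mboat4, Insl5, Snap25, Kit, Adipoq, Fabp6 and Slc10a2 were named outside this rule, after their values were seen, as were the library values of Cck and Pyy. Intervals and model errors rest on reads without molecular identifiers. No 2 libraries of a genotype were alike within sampling noise (chi-square per gene 5.16 to 50.3).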

Additional observations from a re-analysis of the deposited data

How the results depend on the processing

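Over 14 alternative fits of 10 members (140 values), 129 kept their direction and their side of the adjusted threshold, and 0 members passed it in any of these fits. Directions turned in 11 values of Chga, Cck, Pyy and Nts, while Gip, Gcg, Sct, Ghrl, Sst and Tph1 stayed below 0. In the 5 deep libraries the log2 fold changes were -0.32 for Cck, 0.42 for Pyy and 0.07 for Nts, and Chga and Sst moved to -0.30 and -0.32. Without floxed 3 they were -0.02 for Cck, 0.37 for Pyy and 0.04 for Nts. Chga was at 0.03 without Adipoq-F2-KO 2, Cck at -0.05 without Adipoq-F2-KO 3 and at -0.04 without Adipoq-F2-KO 4, and Pyy at 0.00 without Adipoq-F2-KO 4. With 1 library left out at a time, Chga ran from -0.18 to 0.03, Cck from -0.05 to 0.20, Pyy from -0.30 to 0.37, Nts from -0.14 to 0.04, and the count of members at an unadjusted p below 0.05 was 0 to 1.

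With the replicate block the log2 fold change of Pyy was 0.04 and 11 genes of all tested passed the adjusted test, with no other member turned and no call on a member changed. The replicate numbers are those of the sample titles, and the count tables of same-numbered libraries carry different numbers in their names. The numbers were therefore not taken to pair mice, and the block stands for no known pairing. Same-numbered libraries deviated together unevenly (r of 0.542, 0.294, 0.011 and -0.423), and not every library was closest to its own number.

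The count of members at an unadjusted p below 0.05 was 1 (Tph1) with edgeR, without floxed 2 and without Adipoq-F2-KO 3, and 0 in the other fits. The log2 fold change of Tph1 ran from -0.44 to -0.28 over the 14 fits. Over all tested genes, the adjusted count of 6 became 2 with edgeR, 3 without the filter on low counts, 77 in the deep libraries and 2 to 104 with 1 library left out, the 104 without floxed 3. The unadjusted count of 485 became 864 in the deep libraries and 282 to 1302 with 1 library left out, the extremes without floxed 4 and floxed 3. The causes were not tested. Pyy and Ghrl had the fewest raw counts per library, 17 to 72 and 26 to 157.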
